A study of Mus musculus with 4 samples.

Results

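The genes described here handle vitamin A in the liver: Rbp4, Lrat, Rdh11, Rdh10, Dhrs3, Retsat, Aldh1a1, Aldh1a7 and Cyp26a1. They are all the probe sets whose annotated symbol is one of these 9 names, which gave 11 of the 22626 probe sets tested and 9 of the 12393 genes on the array. The names were chosen by retinoid role and with their changes between starved and control livers already known, so that difference is given for them as a description. Counts of limma calls among them are printed beside the share over the whole array, and no statement rests on them. Total RNA was taken from livers of 2 mice starved for 24 h and of 2 control mice. All 4 were wild-type mice aged 1 month on the C57/BL6 background, and neither group carried a transgene or deletion by the labels. The titles and the treatment field give these groups, while the description field speaks of injected and not-injected mice, and what was injected is not stated there. The mice's sex and the time of day were not given either.

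Vitamin A reaches the liver as retinyl ester, is hydrolysed to retinol in hepatocytes, and is then sent out bound to retinol-binding protein or stored again as ester, mostly in hepatic stellate cells. Retinol and retinal are interconverted by short-chain dehydrogenases, retinal is oxidised to retinoic acid by aldehyde dehydrogenases of the Aldh1a family, and retinoic acid is broken down by Cyp26 enzymes. Retinoic acid acts through nuclear receptors, the RARs and RXRs, and liver is the main store of vitamin A in the body.

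Values are log2 RMA signals, 1 per probe set and array, so 1 unit is a doubling of signal, and a change is the mean of the starved arrays minus that of the control arrays. Signals of different probe sets are not set against each other. Array medians lay between 6.71 and 6.74, and Pearson's r across probe sets was 0.994 between the starved arrays, 0.992 between the control arrays and 0.986 to 0.991 between groups. The hepatocyte genes Alb, at 15.26 and 15.28 on starved arrays and 15.30 and 15.21 on control arrays, and Apoa1, at 15.09 and 15.07 on starved arrays and 15.00 and 14.95 on control arrays, were near the top of the scale in every liver. Control 2 stood apart in acute phase genes, chosen here because their values were known: Saa3 read 8.74 and 8.76 on the starved arrays, 8.77 on control 1 and 12.36 on control 2. Actin read higher at its 3′ than at its 5′ probe set, a gap that widens as RNA breaks down, by 2.06 and 1.85 on the starved arrays and 1.79 and 1.76 on the control arrays. The actin gap was thus wider on both starved arrays than on both control arrays. The same gap for Gapdh was 0.86 and 0.48 on the starved arrays and 0.65 and 0.54 on the control arrays, where the groups overlap. Changes are therefore also given without single arrays where that matters. Leaving out 1 array does not address a difference that both starved arrays share, and the part of RNA quality in the changes was not tested.

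Starved livers had several times more Retsat signal and several times less Rdh11 signal than control livers, with Cyp26a1 lower by a smaller and more variable amount. The other 6 genes, which are Rbp4, Lrat, Rdh10, Dhrs3, Aldh1a1 and Aldh1a7, had log2 changes of less than 0.5 in size. The starved and control arrays did not overlap for 9 of the 11 probe sets, 4 higher and 5 lower in starved liver, while 41.9% of all probe sets on the array did not overlap (21.3% higher and 20.6% lower). Limma called 1 of the 11 at an adjusted p under 0.05, an Rdh11 probe set that was lower, beside 0.0575% of all probe sets (13, of which 9 were lower, 0.0398%, and 4 higher, 0.0177%). A log2 change of at least 1 in size was found in 5 of the 11, which belong to 3 genes, and in 1.16% of all probe sets. The median log2 change was -0.37 over the 11 and 0.00 over all probe sets tested. Since the names were chosen with this contrast known, nothing is read from these shares.

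**Figure D1:**
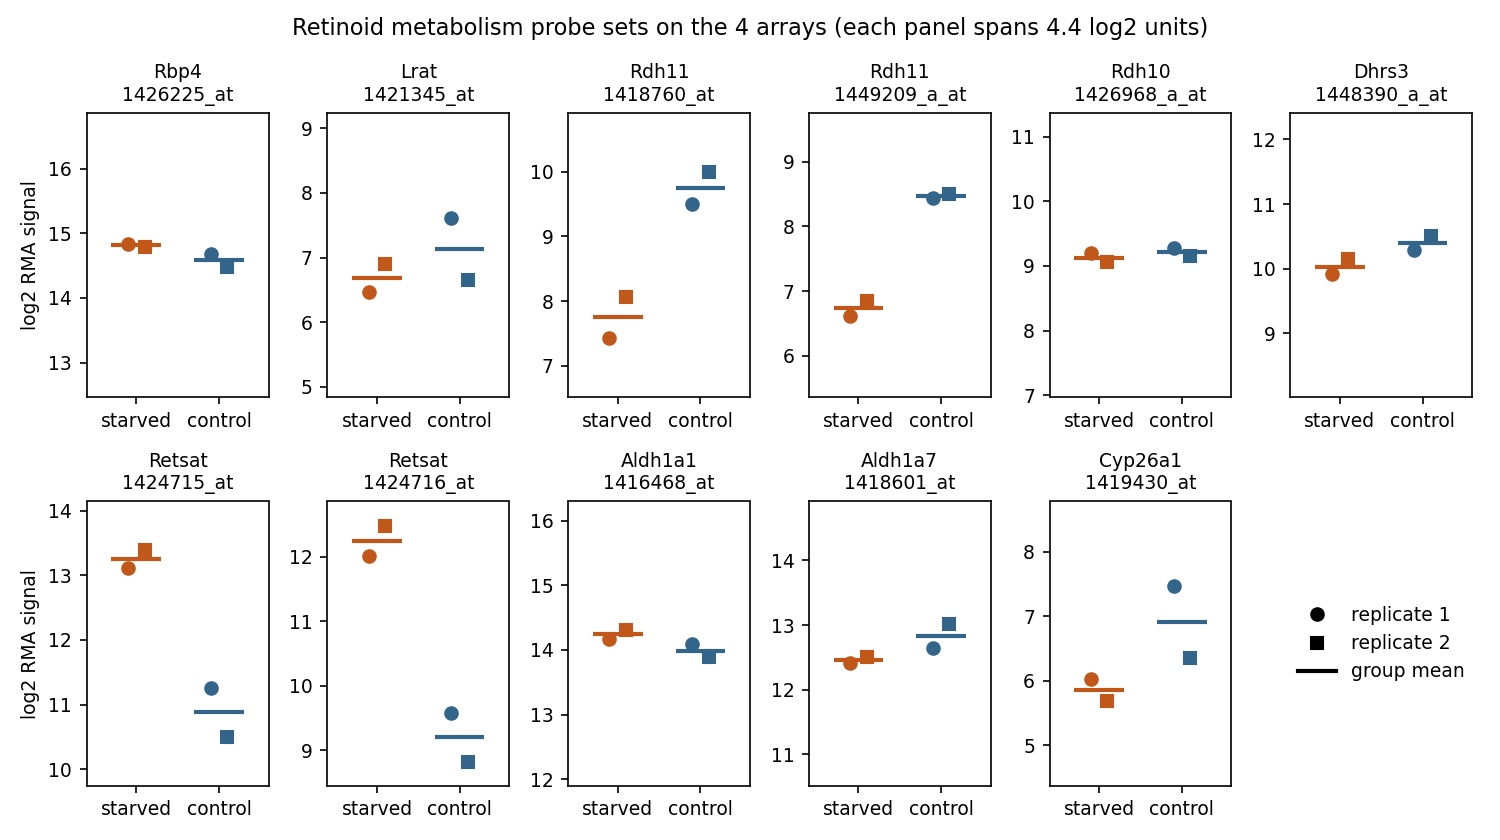
Log2 RMA signal of each of the 11 probe sets on the 2 starved arrays (left, orange) and the 2 control arrays (right, blue), with circles for replicate 1, squares for replicate 2 and bars for group means. The Retsat panels show starved arrays more than 1.8 log2 units above both control arrays, the Rdh11 panels show them more than 1.4 units below, and the Lrat and Rdh10 panels overlap.

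Retsat encodes retinol saturase, an enzyme of the endoplasmic reticulum that reduces a double bond of retinol to give dihydroretinol. Its probe set 1424715_at read 13.11 and 13.39 on the starved arrays, against 11.26 and 10.50 on the control arrays. Its other probe set, 1424716_at, read 12.01 and 12.48 on the starved arrays, against 9.59 and 8.83 on the control arrays. In both, each starved liver was above each control liver, and control 1 was closer to the starved livers than control 2. The log2 change was 2.37 ± 0.26 (SE) for 1424715_at, or 5.18-fold, with starved-control pairs between 1.85 and 2.89. For 1424716_at it was 3.04 ± 0.28, or 8.23-fold, with pairs between 2.43 and 3.65. The 2 probe sets thus moved the same way and differed by 0.67 in the size of the change. Without control 2, the array with high acute phase signals, the changes were 1.99 and 2.66.

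RefSeq places 1 start of Retsat on chromosome 6, and the 250 bases before it are shown because Retsat had the largest change of the 9 genes (chr6:72598352-72598601, GRCm38.p6, plus strand).
Retsat: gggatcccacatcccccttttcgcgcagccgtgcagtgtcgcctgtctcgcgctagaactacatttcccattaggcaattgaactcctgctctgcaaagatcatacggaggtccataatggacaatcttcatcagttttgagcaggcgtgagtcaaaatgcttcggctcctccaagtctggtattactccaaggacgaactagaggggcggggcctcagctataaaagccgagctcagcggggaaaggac
Here and below such stretches were searched on both strands for 4 motifs, with matches in capitals: a sterol response element core (TCACNCCAC), the CCAAT box, and direct repeats of the nuclear receptor half-site GNTCA, with its variable first base, spaced by 5 bases or by 1 base. None of these letters were found in the Retsat stretch. Among all 32851 stretches of this length in the RefSeq table, the sterol element was found in 1.05%, the CCAAT box in 33.8%, the repeat spaced by 5 in 0.776% and the repeat spaced by 1 in 1.01%. A match is a description of the letters and not of a site that is used.

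Rdh11 encodes a short-chain dehydrogenase of the endoplasmic reticulum that reduces retinal to retinol and also acts on other aldehydes. Probe set 1418760_at read 7.43 and 8.07 on the starved arrays, against 9.50 and 9.99 on the control arrays. Probe set 1449209_a_at read 6.61 and 6.85 on the starved arrays, against 8.44 and 8.51 on the control arrays. Both starved livers were lower than both control livers in each probe set, and starved 1 was the lowest. The log2 change was -2.00 ± 0.26 (SE) for 1418760_at, a 3.99-fold lower signal, with pairs between -2.56 and -1.44. For 1449209_a_at it was -1.74 ± 0.13, a 3.34-fold lower signal, with pairs between -1.90 and -1.58. The replicate arrays of 1449209_a_at differed by 0.24 within the starved group and 0.07 within the control group, which makes it the tighter measure of the pair. Its change ran from -1.86 without starved 2 to -1.62 without starved 1. On chromosome 12, Rdh12, which encodes a close relative, is the next protein-coding gene, and as the neighbour its probe set is given too. It read 5.69 and 5.50 on the starved arrays and 5.45 and 5.72 on the control arrays, where the groups overlap.

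RefSeq gives Rdh11 more than 1 start. The 250 bases before one of them hold a CCAAT box on the opposite strand (chr12:79190962-79191211, GRCm38.p6, minus strand), and none of the other 3 motifs were found there or before the other start.
Rdh11: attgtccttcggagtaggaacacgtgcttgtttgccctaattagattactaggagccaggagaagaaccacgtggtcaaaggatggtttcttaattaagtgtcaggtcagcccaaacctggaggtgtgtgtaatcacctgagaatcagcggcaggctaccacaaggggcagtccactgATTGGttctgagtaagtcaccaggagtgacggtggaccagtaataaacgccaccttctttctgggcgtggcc

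Rdh10 and Dhrs3 encode partner enzymes: Rdh10 oxidises retinol to retinal, the first step towards retinoic acid, and Dhrs3 reduces retinal back to retinol. Rdh10 read 9.19 and 9.06 on the starved arrays, against 9.28 and 9.15 on the control arrays. The groups overlapped, and the log2 change of -0.09 ± 0.12 (SE) was smaller than the gap of 0.14 between the starved arrays. Dhrs3 read 9.91 and 10.15 on the starved arrays, against 10.29 and 10.51 on the control arrays. Both starved livers were below both control livers by a small margin, the nearest pair differing by 0.14, and the log2 change was -0.37 ± 0.15.

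**Figure D2:**
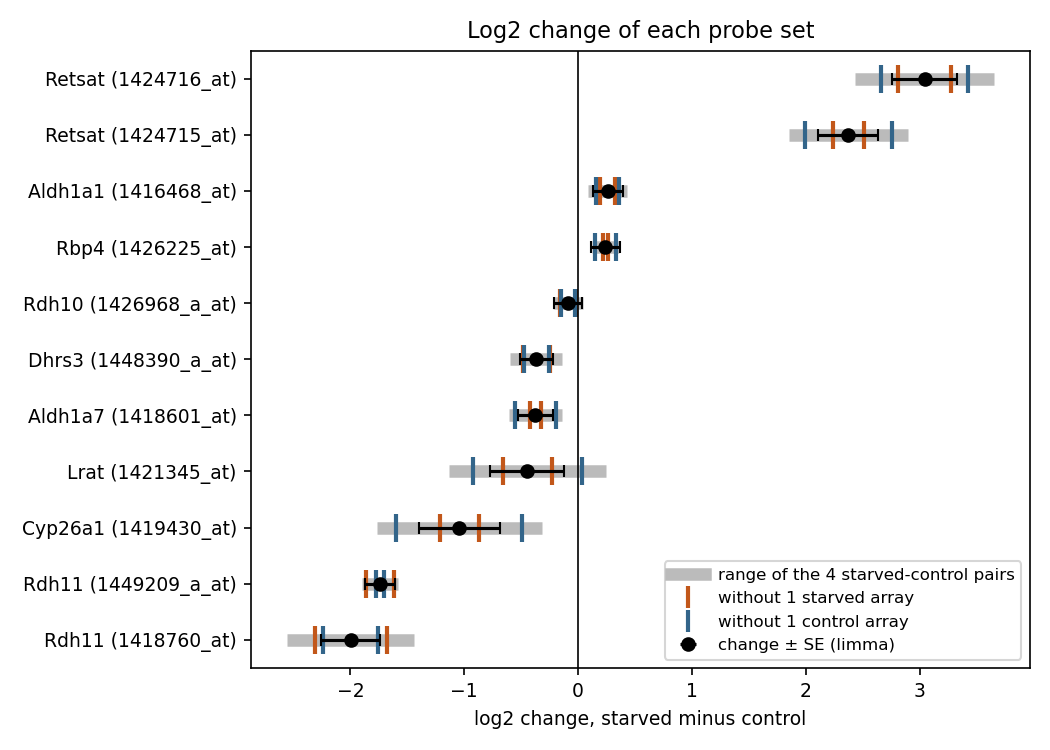
Log2 change of each probe set, starved minus control, as black points with the limma SE, over a grey bar for the range of the 4 starved-control pairs; coloured ticks give the change with 1 array left out. Retsat lies at 2.37 and 3.04, Rdh11 at -1.74 and -2.00, and the ticks of Lrat fall on both sides of 0.

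Rbp4, the carrier that takes retinol from the liver into blood, read 14.84 and 14.80 on the starved arrays, against 14.67 and 14.49 on the control arrays. Its log2 change of 0.24 ± 0.12 (SE) was close to the gap of 0.19 between the control arrays, and control 1 lay 0.12 below the nearer starved array. The log2 change came to 0.33 without control 1 and 0.14 without control 2. Ttr, the transthyretin that binds retinol-binding protein in plasma and was picked here after its values were seen, read 15.03 and 15.04 on the starved arrays and 15.13 and 15.05 on the control arrays. Its log2 change was -0.06 ± 0.11. The Rbp4 and Ttr signals lie close to the highest value on the arrays, 15.47, and saturation was not tested.

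Lrat encodes lecithin:retinol acyltransferase, which makes the retinyl esters stored in stellate cells. It read 6.47 and 6.90 on the starved arrays, against 7.60 and 6.65 on the control arrays. The groups overlapped because control 2 lay between the starved livers, and the gap of 0.95 between the control arrays was larger than the log2 change of -0.45 ± 0.32 (SE). Without control 1 the change was 0.03, and without control 2 it was -0.92, so its sign rested on control 1. The mean log2 signal of 17 measured stellate cell genes was 7.20 and 7.27 on the starved arrays and 7.60 and 7.16 on the control arrays, highest on control 1 as for Lrat. The stellate genes Reln and Des were within reach of the arrays, with Reln at 9.74 and 9.90 on the starved arrays and 10.13 and 9.29 on the control arrays, and Des at 6.67 and 6.75 on the starved arrays and 6.74 and 6.51 on the control arrays. Hgf, a growth factor made by these cells, read 5.03 and 5.31 on the starved arrays and 5.64 and 5.11 on the control arrays. Of the 17 genes, 5 were lower and 1 higher without overlap, beside 20.9% and 21.4% of all genes, and the list's median log2 change was -0.08. These 6 are named after their values were seen. Col3a1, a fibrillar collagen gene, read 7.24 and 7.70 on the starved arrays, against 9.29 and 8.70 on the control arrays, with a log2 change of -1.53 ± 0.24 (SE). The other 4 lower genes were the actin gene Acta2 (-0.54), the hormone receptor gene Pth1r (-0.48), the growth factor receptor gene Pdgfrb (-0.36) and the collagen gene Col1a1 (-0.10), and the higher one was Ecm1 (0.44). A list of 10 sinusoidal endothelial genes had means of 7.85 and 7.60 on the starved arrays and 7.97 and 7.25 on the control arrays, also highest on control 1. Of these 10, 1 was higher and 0 lower without overlap, beside 21.4% and 20.9% of all genes. The higher one was Lyve1, named after its values were seen, at 8.89 and 8.02 on the starved arrays against 6.64 and 6.64 on the control arrays. On the other arrays Lrat and the lists differed in order: Lrat was lowest on starved 1, and both lists on control 2. The part of stellate and endothelial cells in the Lrat values was not tested, and in pieces of whole liver fewer cells of a type and less RNA per cell cannot be told apart.

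Aldh1a1 encodes the cytosolic enzyme that oxidises retinal to retinoic acid, and Aldh1a7 a close relative in the mouse. Aldh1a1 read 14.17 and 14.31 on the starved arrays, against 14.08 and 13.88 on the control arrays. Aldh1a7 read 12.41 and 12.51 on the starved arrays, against 12.65 and 13.02 on the control arrays. The starved livers were above both controls for Aldh1a1 and below both for Aldh1a7, each by a narrow margin, with the nearest pairs 0.09 and 0.14 apart. The log2 changes were 0.26 ± 0.13 (SE) for Aldh1a1 and -0.38 ± 0.16 for Aldh1a7. For Aldh1a1 the change was 0.36 without control 1 and 0.16 without control 2, and for Aldh1a7 it was -0.56 without control 1 and -0.19 without control 2. The 2 genes are neighbours on chromosome 19 with no protein-coding gene between them, and Rbp4 and Cyp26a1 lie on the same chromosome with 3 protein-coding genes between them.

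The 120 bases before a start of Aldh1a1 and the Aldh1a7 start are identical at 105 positions (87.5%), laid side by side without gaps. RefSeq gives Aldh1a1 another start too, and the start shown was picked because its bases were more alike. The share of 87.5% holds for this choice of start and length, and not for every start of the pair. Capitals mark the 15 positions that differ (Aldh1a1, chr19:20601848-20601967, plus strand; Aldh1a7, chr19:20727557-20727676, minus strand; GRCm38.p6).
Aldh1a1: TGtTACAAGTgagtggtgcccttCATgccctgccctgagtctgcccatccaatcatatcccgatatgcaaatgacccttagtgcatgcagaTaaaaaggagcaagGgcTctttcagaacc
Aldh1a7: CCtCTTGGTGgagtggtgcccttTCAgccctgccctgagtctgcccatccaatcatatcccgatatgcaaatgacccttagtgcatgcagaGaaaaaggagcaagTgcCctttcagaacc
These bases lie before the starts and say nothing of how alike the transcripts are. Whether a probe set also takes signal from the relative's transcript was not tested.

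Cyp26a1 encodes the enzyme that hydroxylates retinoic acid and so ends its action, and its own transcription is known to be induced by retinoic acid. It read 6.03 and 5.69 on the starved arrays, against 7.46 and 6.35 on the control arrays. Both starved livers were below both control livers, but the control arrays lay 1.11 apart, the widest gap within a group among the 11 probe sets. The log2 change was -1.04 ± 0.36 (SE), a 2.06-fold lower signal, with pairs between -1.77 and -0.32. It was -0.49 without control 1 and -1.60 without control 2, so its size depended on which control was used. In mouse liver Cyp26a1 is known mainly from hepatocytes around the central vein, and the mean of 10 genes of that zone was 10.24 and 10.48 on the starved arrays and 10.33 and 10.38 on the control arrays, where the groups overlap. Of the 10, 4 were higher and 3 lower without overlap, beside 21.4% and 20.9% of all genes. They are named after their values were seen. Cyp1a2 read 11.81 and 12.05 on the starved arrays, against 13.09 and 12.99 on the control arrays. Its log2 change was -1.10 ± 0.13 (SE). The other lower genes were Rgn (-0.59) and Lgr5 (-0.27), and the higher ones were Tbx3 (0.62), Oat (0.43), Slc1a2 (0.40) and Cyp2e1 (0.13). All 4 Cyp26a1 signals were close to or below 7.46 on arrays with medians near 6.7, and no detection call was used.

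The 250 bases before the start of Cyp26a1 are shown because they hold the 1 match to the repeat spaced by 5 bases among 13 such stretches of 8 of the genes (chr19:37697558-37697807, GRCm38.p6, plus strand). This is the layout of the retinoic acid response element for which the gene is known, and it lay on the opposite strand, from 32 to 17 bases before the start.
Cyp26a1: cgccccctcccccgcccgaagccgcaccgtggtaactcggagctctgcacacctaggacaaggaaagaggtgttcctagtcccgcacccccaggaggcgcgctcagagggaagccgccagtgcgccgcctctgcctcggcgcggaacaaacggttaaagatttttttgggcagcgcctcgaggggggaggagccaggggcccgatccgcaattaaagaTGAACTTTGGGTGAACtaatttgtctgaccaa
A CCAAT box was found in 7 of the 13 stretches, beside the share of 33.8% given above, and the sterol element and the repeat spaced by 1 base in 0. The stretches are not all independent. Overlapping Dhrs3 stretches share a CCAAT box, and so do the alike stretches of Aldh1a1 and Aldh1a7, so nothing is read from this count.

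The genes whose array profiles were closest to those of Retsat and Rdh11 were looked up among 12392 others, by the Euclidean distance over the 4 arrays of log2 signals with each gene's mean removed. Each gene was read from its probe set with the highest mean, which is 1424715_at for Retsat and 1418760_at for Rdh11. Neighbours of their other probe sets were not looked up and may differ. Nearest to Retsat were Ehhadh, the bifunctional enzyme of peroxisomal fatty acid oxidation (distance 0.415), the retinol dehydrogenase gene Rdh16 (0.700) and the fatty acid hydroxylase gene Cyp4a31 (0.706). Ehhadh read 13.50 and 13.42 on the starved arrays, against 11.18 and 10.87 on the control arrays. The log2 changes of these 3 genes were 2.44, 1.74 and 3.04 in the same order. They were chosen by these same values, so sharing the direction of Retsat follows from the choice. Nearest to Rdh11 were the water channel gene Aqp8 (0.312), Hmgcs1, which encodes an early enzyme of cholesterol synthesis (0.331), and the glutathione transferase gene Gstm3 (0.424). Aqp8 read 7.85 and 8.34 on the starved arrays, against 10.12 and 10.20 on the control arrays. The log2 changes of Aqp8, Hmgcs1 and Gstm3 were -2.07, -2.18 and -1.72, and here too the direction follows from the choice. Hmgcs1 and Gstm3 were read from _x_at and _s_at probe sets, which may take signal from related transcripts. With 4 arrays, a short distance says that 2 genes had similar values in these livers and no more.

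**Figure D3:**
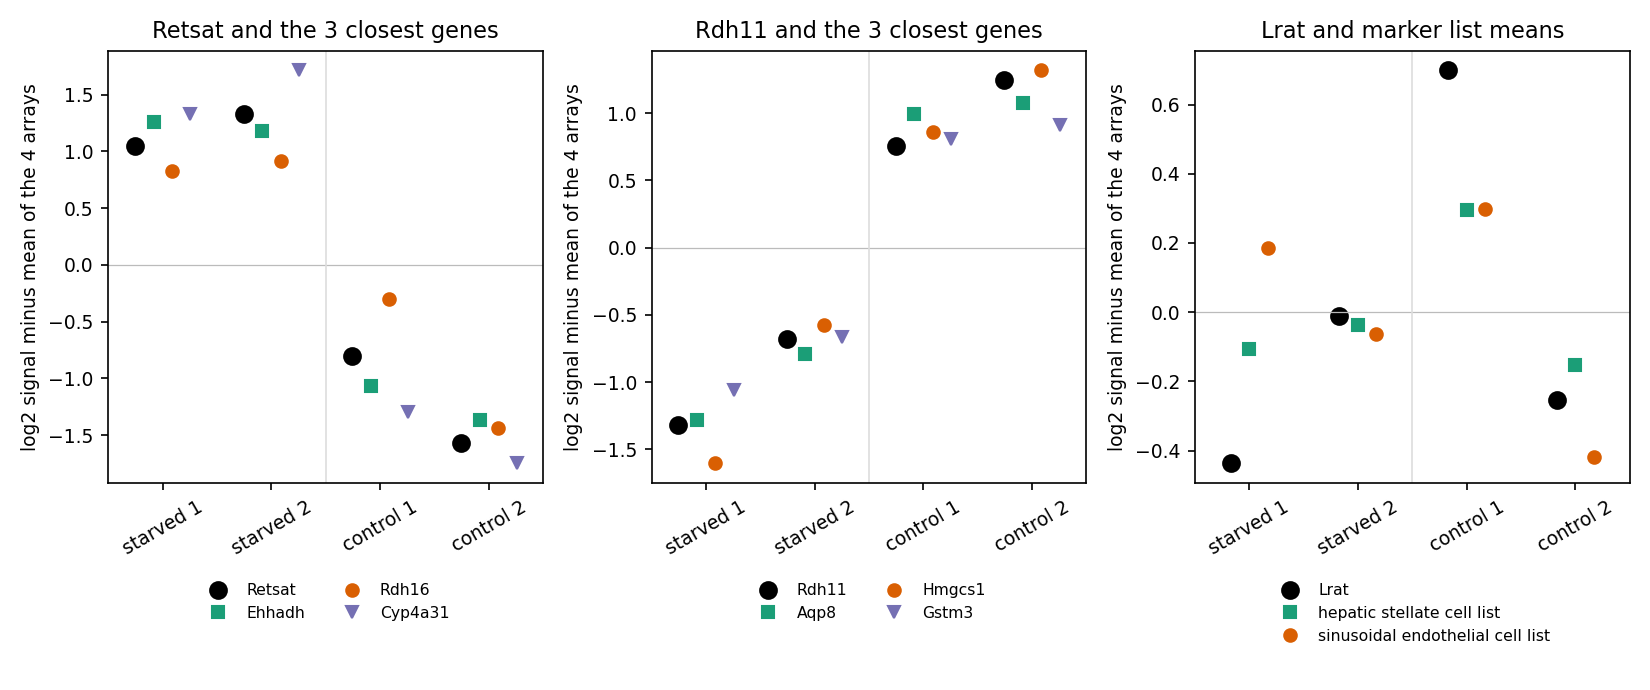
Log2 signal minus the mean of the 4 arrays, with starved arrays left and control arrays right. Shown are Retsat (1424715_at) and Rdh11 (1418760_at) with the 3 closest genes of each, and Lrat with the mean of the stellate and endothelial marker lists. Retsat and its neighbours are high on both starved arrays, and Rdh11 and its neighbours are low on both, as follows from choosing neighbours by distance. Lrat and both marker lists are highest on control 1 and differ in their order on the other arrays.

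A list of 73 other genes of retinoid handling, of which 59 were measured, was set beside these 9. Limma called 0 of the 59 at an adjusted p under 0.05 in either direction, beside 0.0646% of all genes read the same way, and 12 at an unadjusted p under 0.05 (6 higher and 6 lower), beside 11.4% of all genes. The groups did not overlap for 33 of the 59, 13 higher and 20 lower, beside 42.2% of all genes (21.4% higher and 20.9% lower). The median log2 change was -0.06, and 0.00 over all probe sets tested. Leaving out 1 control array leaves no spread between controls to measure, so only log2 changes of Fabp5, Rdh16 and Ces1d are then given.

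Among 10 measured genes of retinol transport and binding, Fabp5 stood out in size. It encodes a fatty acid-binding protein that also carries retinoic acid to the nucleus, and it read 9.83 and 10.01 on the starved arrays, against 11.85 and 12.89 on the control arrays. Both starved livers were below both controls, with a log2 change of -2.45 ± 0.33 (SE) and an adjusted p = 0.0893 in limma, which misses the threshold, and a second Fabp5 probe set gave -2.58 ± 0.40. The change was -2.97 without control 1 and -1.93 without control 2. The retinoic acid-binding protein gene Crabp2, at -0.29 ± 0.16 and below the lower quartile on all 4 arrays, and the retinol-binding protein gene Rbp3, at 0.28 ± 0.16, were the next smallest in p.

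Of 8 measured genes that form or hydrolyse retinyl esters, 3 were higher without overlap and 0 lower, beside 21.4% and 20.9% of all genes. Dgat1, an acyltransferase that can also esterify retinol, had a log2 change of 0.55 ± 0.12 (SE), from an _s_at probe set. Ces1d, a carboxylesterase, read 12.42 and 12.61 on the starved arrays, against 12.22 and 10.69 on the control arrays. The control arrays lay far apart, and the log2 change was 1.06 ± 0.46. It came to 1.83 when control 1 was left out and to 0.30 when control 2 was, so its size depended on which control was used. Pnpla3, a lipase that acts on retinyl esters in human stellate cells, had 0.12 ± 0.12.

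The 17 measured oxidoreductases of retinol and retinal held 6 genes that were higher and 6 that were lower without overlap, beside 21.4% and 20.9% of all genes, and their median log2 change was 0.01. Rdh16, whose product oxidises retinol and androgens, read 10.02 and 10.11 on the starved arrays, against 8.89 and 7.76 on the control arrays. Both starved livers were higher, with a log2 change of 1.74 ± 0.35 (SE), or 2.30 without control 1 and 1.17 without control 2, and an adjusted p = 0.178 in limma. Rdh16, Rdh1, Rdh7 and Rdh9 are close relatives in a gene cluster, so signal may be shared between their probe sets. Akr1b10, an aldo-keto reductase gene, had 0.52 ± 0.14, with both control arrays below the lower quartile. Another of its probe sets, below the lower quartile on all 4 arrays, had 0.23 ± 0.15. Rdh5, a dehydrogenase best known for its action on cis-retinol in the eye, had -0.46 ± 0.14. Neither gene passed the test.

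Of 5 measured genes that can form retinoic acid, Aox3, an aldehyde oxidase gene, had the smallest p, at 11.69 and 12.40 on the starved arrays, against 13.06 and 12.93 on the control arrays. Its log2 change was -0.96 ± 0.24 (SE), with an adjusted p = 0.248 in limma. Its relative Aox1 had -0.42 ± 0.27, and Aldh1a2, below the lower quartile on all 4 arrays, had -0.05 ± 0.12. Of 2 measured P450 genes linked to breakdown of retinoic acid, Cyp2s1 had -0.19 ± 0.11, while Cyp2c39 read 6.94 and 10.81 on the starved arrays and 9.26 and 5.84 on the control arrays. The spread within each group exceeded the difference for Cyp2c39, and the Cyp2c genes are a family with shared sequence.

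Of 5 genes of carotenoid cleavage and the visual cycle, Bco1, which splits beta-carotene into retinal, had the smallest p. It read 7.66 and 7.38 on the starved arrays, against 8.27 and 7.93 on the control arrays, so both starved livers were lower, and the log2 change was -0.58 ± 0.17 (SE, adjusted p = 0.303 in limma). Rgr, an opsin of the eye that lay below the lower quartile on all 4 arrays, had -0.29 ± 0.12, and Bco2, the other carotenoid oxygenase gene, had -0.11 ± 0.16.

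Of the 7 receptor genes, 0 passed in limma at an unadjusted p under 0.05, beside 11.4% of all genes. Without overlap 2 were higher and 3 lower, beside 21.4% and 20.9% of all genes. Rarb, itself known to be induced by retinoic acid, read 5.06 and 4.38 on the starved arrays, against 5.39 and 5.17 on the control arrays, with a log2 change of -0.56 ± 0.24 (SE). Both starved values lay below the lower quartile of their arrays. Rara had -0.37 ± 0.19 and Rarg 0.15 ± 0.11, and a second Rarg probe set had the opposite sign, at -0.18 ± 0.15. Of 5 measured genes known to respond to retinoic acid, the corepressor gene Nrip1 had 0.56 ± 0.14, and Tgm2, a transglutaminase, -0.81 ± 0.21 from an _x_at probe set. The 6 probe sets of Tgm2 ran from -0.81 to -0.05. Rai14 had -0.40 ± 0.16 in 1 probe set and 0.23 ± 0.15 in another, so its direction is not settled.

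**Figure D4:**
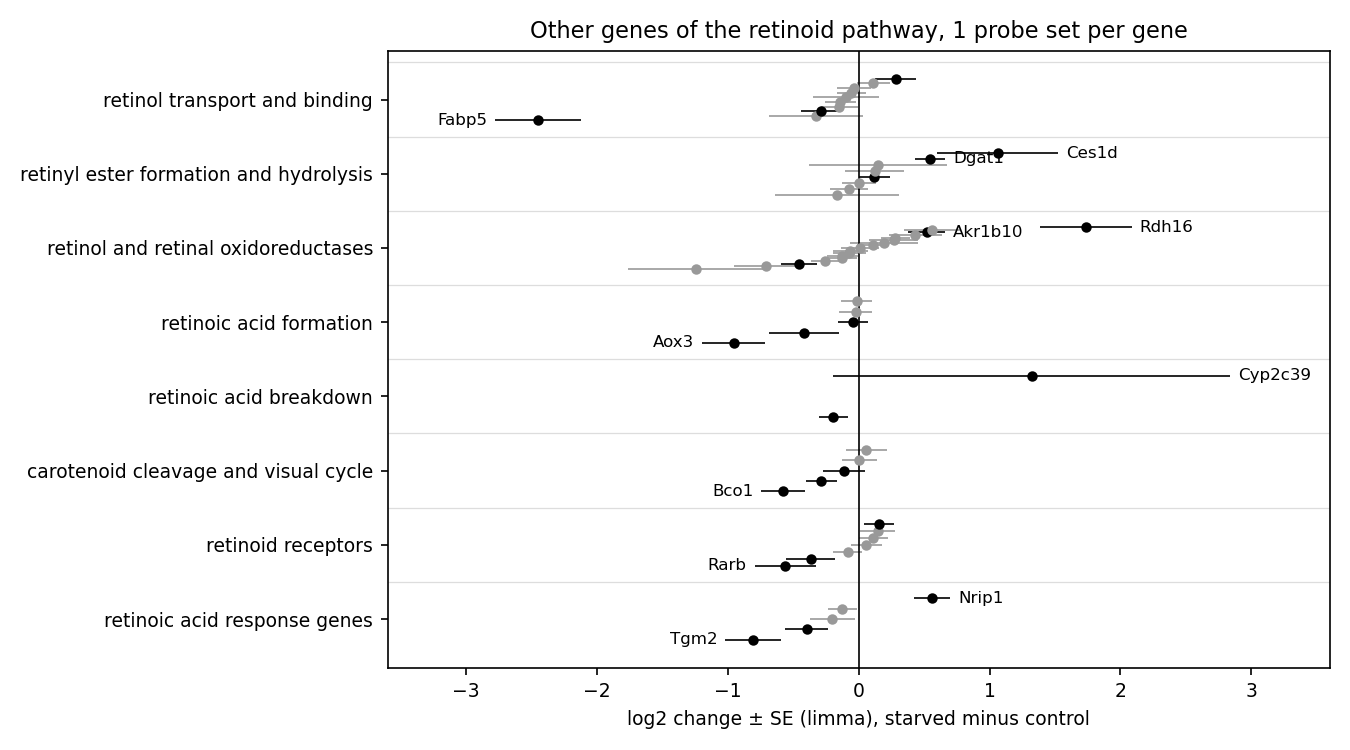
Log2 change with the limma SE, starved minus control, of 59 other retinoid genes by role, with 1 point per gene; black points are the genes with the 3 smallest p in their group and those of at least 0.5 in size carry a name. Most points lie within 0.5 of 0, with Fabp5 at -2.45 and Rdh16 at 1.74 farthest out among genes whose groups did not overlap.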

How the data were processed

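Liver RNA of 4 mice was labelled with biotin and hybridised to Affymetrix arrays, 1 per mouse, per the labels' protocols. The authors deposited log2 signals made by RMA (affy), per the submitters' processing notes; tool versions, and whether other arrays were normalized along, are not given there. RMA makes arrays alike in distribution, so a shift of all transcripts would not be seen. Of 22690 probe sets, 64 Affymetrix controls were left out. Platform annotation gave 1 symbol to 20380 probe sets, several to 691 and none to 1555. Of the 20380, 20351 took their symbol from RefSeq (GRCm38.p6), whether or not it differed from the annotated symbol.

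Starved and control arrays were compared with lmFit and eBayes (limma 3.58.1, R 4.3.3, two-sided, no covariate) over all 22626 other probe sets, with Benjamini-Hochberg adjustment and a threshold of 0.05. Prior degrees of freedom were 3.83 and the median SE of a log2 change was 0.133. The p-values reflect how these 4 mice varied, and so few arrays limit precision: a permutation test of 2 against 2 arrays cannot go below 0.333. The fit was tested on simulated data: the share of false calls was near the threshold with spreads drawn from limma's fitted prior, and above it with each probe set's own fitted spread. Outside the 9 genes, each gene was read from whichever of its probe sets had the highest overall mean.

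The 9 genes and the lists were chosen with earlier results of these data known. Of the other pathway genes, the rule names those past the test and up to 3 per group with the smallest p. It also names the 3 genes with the closest profile to the most raised and the most lowered of the 9, and Alb, Apoa1, Des, Reln and Hgf as markers. Alternatives were a common median, quantile normalization, a filter on the lowest 40% of probe sets, 1 probe set or the mean of probe sets per gene, no _x_at or _s_at probe sets, trend and robust settings, the replicate number as a block, and each array left out. Promoter stretches are RefSeq's (GRCm38.p6), given for 8 of the 9 genes.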

Additional observations from a re-analysis of the deposited data

How the results depend on the processing

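Over the whole array 13 probe sets were called, with 8 for 1 probe set per gene, 23 without _x_at and _s_at probe sets, 59 with trend and robust settings, and 2 (without starved 1) to 57 (without control 1) when 1 array was left out. Of the 11 retinoid probe sets 1 was called, Rdh11 1449209_a_at. None was called for 1 probe set per gene, a fit that read Rdh11 from 1418760_at and so did not hold 1449209_a_at. None was called either when a gene's probe sets were averaged. The count was 2 without _x_at and _s_at probe sets, where Retsat 1424716_at joined Rdh11 1449209_a_at. It was 3 with trend and robust settings, where both Retsat probe sets joined that Rdh11 probe set. With 1 array left out, 0 to 3 were called, the 3 being the same probe sets without control 1, and 0 without any 1 of the other arrays. Of the 59 other pathway genes, 0 to 3 were called in these fits. With the replicate number as a replicate block, 0 probe sets were called over the whole array, 0 of the 11 and 0 of the 59 (limma; 2534 probe sets at an unadjusted p under 0.05). Same-numbered arrays shared only a number, and their deviations from the group means had a correlation of 0.04 across probe sets. A common median, quantile normalization and the filter on low signals left these counts within 1.5 times. None of the 11 retinoid probe sets changed sign under any alternative except Lrat, at 0.03 without control 1. Several of the 59 other genes did change sign with 1 array left out, such as Cyp2c39, at 3.25 without starved 1 and -0.61 without starved 2. With 2 arrays per group, a change near the median SE of 0.133 cannot be told from the spread between mice. A lone array was assumed to vary like the other group.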

Other observations

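The control livers differed from each other in several retinoid genes by more than most probe sets did. The gap between control arrays had a median of 0.15 log2 units over all probe sets, and the gap between starved arrays 0.14. Cyp26a1 had a gap of 0.34 between starved arrays and 1.11 between control arrays, Lrat 0.42 and 0.95, and Retsat (1424715_at) 0.28 and 0.77. In all 3 control 2 read lower than control 1, while Fabp5, Rdh11 (1418760_at) and Aldh1a7 read higher on control 2, by 1.04, 0.49 and 0.37.

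The carboxylesterase genes of the list that hydrolyse esters showed the same order between controls, and were picked here after their values were seen. Ces1e read 9.25 and 9.99 on the starved arrays, against 10.27 on control 1 and 8.67 on control 2. Ces1g read 9.21 and 10.11 on the starved arrays, against 10.47 on control 1 and 9.19 on control 2. Hsd17b6, a dehydrogenase that acts on retinoids and steroids, read 10.06 and 8.90 on the starved arrays, against 11.37 on control 1 and 10.09 on control 2. Acute phase genes ran the other way on control 2: Orm2 read 9.10 and 9.25 on the starved arrays, 9.34 on control 1 and 13.79 on control 2, and Lcn2 8.84 and 9.15 on the starved arrays, 9.35 on control 1 and 13.49 on control 2. The part of the acute phase signal in these differences was not tested.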
